A study of Homo sapiens with 6 samples.

Results

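Box H/ACA small nucleolar RNAs (SNORA genes) and Cajal body small RNAs (SCARNA genes) were examined in MIA-PaCa2, an established cell line derived from a human pancreatic ductal adenocarcinoma, after transfection with the siRNA siH19-2 against the long noncoding RNA H19 or with a nonsense siRNA control (NC). Members were all probe sets whose gene symbol starts with SNORA or SCARNA. This rule uses no measured value, but the class was chosen with earlier results of these data known. There were 97 SNORA and 24 SCARNA probe sets, 121 of 39261 named probe sets in all. Each group held 3 arrays, and the cells of both groups were transfected with lipofectamine. RNA was isolated 24 h after transfection. The dose of siRNA is 50 nM in the methods and 20 µg in the sample labels. Gene expression was measured on Clariom D arrays, on which labelled copies of the cells' RNA, coding or not, bind to short probes. All values below are log2 signals normalized between arrays by the authors, and a difference of 1 on this scale is a doubling of the signal. The sources do not say whether the arrays of a group came from separate cultures, so the p-values may measure technical spread only.

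H/ACA RNAs fold into hairpins that pair with a target RNA and place one of its uridines in the active site of dyskerin, the enzyme that turns uridine into pseudouridine. Each RNA works in a particle with dyskerin, NOP10, NHP2 and GAR1. SNORA RNAs act in the nucleolus, mainly on ribosomal RNA. SCARNA RNAs reside in Cajal bodies, nuclear bodies in which the small nuclear RNAs of the spliceosome are modified, and they can carry an H/ACA domain, a C/D domain that guides methylation of the ribose, or both. In human cells, most of these RNAs are cut out of introns of other genes after splicing.

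H19 itself was measured first, as a check of the labels. The log2 signal of H19 was 7.10, 7.09 and 7.12 on the siH19-2 arrays, against 7.36, 7.43 and 7.42 on the NC arrays. It fell by 0.30 on the log2 scale (SE 0.036, adjusted p = 0.012 from limma with Benjamini-Hochberg adjustment), which left 81.3% of the NC signal. The groups did not overlap (exact permutation test, two-sided, p = 0.1, and 3 arrays against 3 cannot give less). The H19 call was lost without NC replicate 2 (adjusted p = 0.067), NC replicate 3 (0.063), siH19-2 replicate 1 (0.059) or siH19-2 replicate 2 (0.053). As for the cell type, KRT8, KRT18 and VIM averaged 9.63, 9.33 and 13.1 on the siH19-2 arrays and 9.74, 9.43 and 13.09 on the NC arrays, whereas the epithelial markers EPCAM and CDH1 lay below the array median of 6.16 in both groups. KRT19 fell by 0.40 (adjusted p = 0.032 from limma, called without siH19-2 replicate 3 but not without any other array). None of 16 markers of acinar, islet, leukocyte, endothelial and fibroblast cells passed the test from limma, and 2 of them, CD3E and COL3A1, were higher at an unadjusted p under 0.05. This test compares the groups and does not tell whether a marker was present. Over the 6 arrays CD68, INS and COL1A1 averaged 8.83, 7.99 and 7.30, above the array median. Others, such as AMY2A (4.04) and PTPRC (4.56), lay below it, so the signal level alone did not identify the cell type.

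Few H/ACA and Cajal body RNAs passed the test after transfection with siH19-2, and those that did were lower. At an adjusted p under 0.05 from limma, 2 of 121 members (1.65%) were called, against 5.26% of all named probe sets. Both fell, which is 1.65% of the members beside 2.63% of all probe sets, and none rose, beside 2.64%. They were SNORA2B and SNORA75. At an unadjusted p under 0.05, 24 members (19.8%) differed, close to the 20.3% of all probe sets. Of these 24, 22 were lower (18.2%, beside 8.25% of all probe sets) and 2 were higher (1.65%, beside 12.0%). The 3 siH19-2 arrays all lay below the 3 NC arrays for 25 members (20.7%, beside 9.98%) and above them for 5 (4.13%, beside 18.3%). Most members, 98, were brighter than the median signal. Of these 98, 20.4% were lower and 2.04% higher at an unadjusted p under 0.05, beside 12.4% and 17.5% of all probe sets that bright. The groups lay apart for 23.5% lower and 3.06% higher, beside 15.4% and 24.4%.

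The members as a group had a median log2 fold change slightly below 0, of -0.066, with 81 of 121 below 0, and that of all named probe sets was 0.016. It was -0.054 for the SNORA RNAs and -0.13 for the SCARNA RNAs. The 212 probe sets of box C/D small nucleolar RNAs (SNORD genes), which guide ribose methylation, had a median of -0.047. More of them were also lower (11.8%) than higher (5.19%) at an unadjusted p under 0.05. Their groups lay apart for 12.7% lower and 6.13% higher. Changes of the SNORA and SCARNA members ran from -0.65 to 0.58. The direction of the member median depended on the scaling. The median SNORD signal was 7.50, 7.30 and 7.39 on the siH19-2 arrays, against 7.47, 7.57 and 7.47 on the NC arrays. These medians differ more between the groups than the median SNORD fold change of -0.047. Centring on them therefore raises every fold change by more than the SNORD probe sets typically fell. When the arrays were centred on the SNORD median, the median of all probe sets moved to 0.12, that of the members to 0.042, and 51 of 121 members were below 0. With this centring 8 members were lower and 13 higher at an unadjusted p under 0.05, beside 2.27% and 16.5% of all probe sets, and the groups lay apart for 8 lower (6.61%, beside 2.46%) and 15 higher members (12.4%, beside 27.7%).

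**Figure D1:**
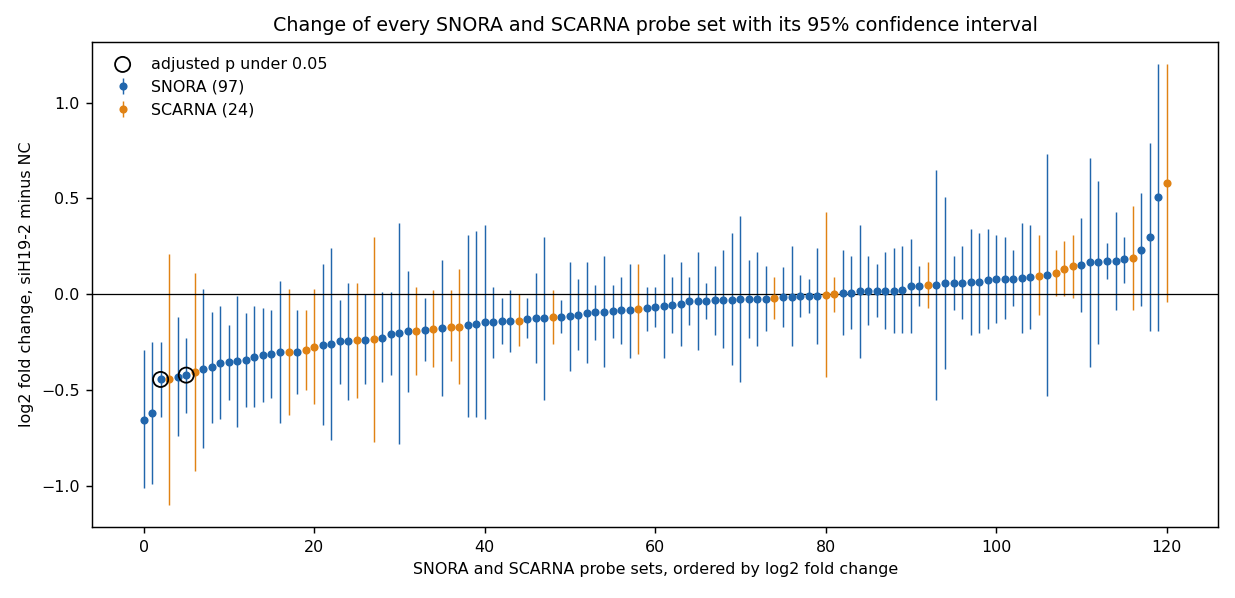
Log2 fold change (siH19-2 minus NC, y axis) of each of the 97 SNORA and 24 SCARNA probe sets, ordered from the lowest to the highest, with 95% confidence intervals from limma as bars. Changes ran from -0.65 to 0.58, 81 of 121 lay below 0 (51 when the arrays were centred on the SNORD median), and the 2 circled points, SNORA2B and SNORA75, had an adjusted p under 0.05.

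The count of lower members also rested on single arrays. Without NC replicate 1 it was 13 (10.7%, beside 6.99% of all probe sets), without NC replicate 2 it was 13 (10.7%, beside 7.39%), and without siH19-2 replicate 2 it was 14 (11.6%, beside 8.15%). Without siH19-2 replicate 3 it was 18 (14.9%, beside 8.16%). Without NC replicate 3 or siH19-2 replicate 1 it was 26 (21.5%, beside 7.26% and 7.92%). The median log2 fold change of the members was -0.039 without NC replicate 2 and -0.10 without siH19-2 replicate 1. The SNORA median was -0.097 without siH19-2 replicate 1, and the SCARNA median was -0.084 without NC replicate 1. The median deviation of the members from their mean over all 6 arrays was 0.014, -0.0555 and -0.0625 on the siH19-2 arrays 1, 2 and 3, against 0.0396, 0.0724 and -0.0316 on the NC arrays 1, 2 and 3. The groups therefore overlapped in this measure, with siH19-2 replicate 1 above NC replicate 3. The SNORD probe sets stood at 0.0425, -0.0401 and -0.0558 on the siH19-2 arrays, against 0.0358, 0.0252 and 0.0143 on the NC arrays. In both classes siH19-2 replicate 1 stood above the other siH19-2 arrays. The median residual SD between replicates was 0.14 for the members, 0.14 for the SNORD probe sets and 0.074 for all probe sets.

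**Figure D2:**
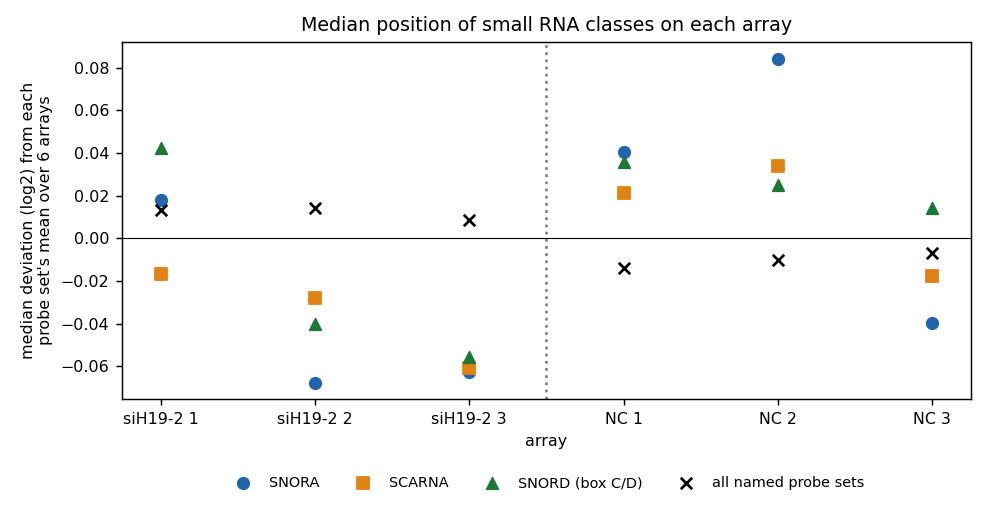
Median deviation (log2, y axis) of the SNORA, SCARNA, SNORD and all named probe sets from their own mean over the 6 arrays, for each array (x axis, siH19-2 left of the dotted line and NC right of it). The SNORA points of siH19-2 replicates 2 and 3 lie lowest, and those of siH19-2 replicate 1 (0.0179) and NC replicate 3 (-0.0399) lie on the side of the other group.

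SNORA2B and SNORA75 were the members called. SNORA2B had log2 signals of 5.82, 5.83 and 5.63 on the siH19-2 arrays, against 6.28, 6.09 and 6.25 on the NC arrays. It fell by 0.44 (SE 0.079, adjusted p = 0.036 from limma), to 73.5% of the NC signal (95% confidence interval 64.3% to 84.0%). The lowest NC array was above the highest siH19-2 array, but the call was lost without any one of the 6 arrays (adjusted p 0.064 to 0.13 from limma). SNORA75, which lies within the gene of nucleolin, had 8.84, 8.60 and 8.61 on the siH19-2 arrays, against 9.17, 9.12 and 9.03 on the NC arrays. It fell by 0.42 (SE 0.080, adjusted p = 0.043 from limma) and 74.7% of the NC signal was left. The siH19-2 arrays lay apart from the NC arrays, with siH19-2 replicate 1 nearest to them. Without that array SNORA75 was called (adjusted p = 0.034 from limma), and without each of the other 5 arrays it was not (0.10 to 0.15). A lower signal of a bulk sample does not tell whether fewer cells carried the RNA or each cell carried less.

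Neither call held when the arrays were centred on the SNORD median, with adjusted p = 0.17 for SNORA2B and 0.13 for SNORA75 from limma. That scaling also widened the spread between arrays, with an SE of 0.092 for H19 against 0.036 as reported. A call lost under it therefore cannot be read as a lack of change. Under that scaling 2 members were called (1.65%, beside 1.46% of all probe sets), and both were lower, beside 0.469%. The share of members called was thus close to that of all probe sets, unlike in the values as reported. These members were SNORA23 and SNORA12, which had the lowest fold changes in both scalings. SNORA23 lies within the gene of importin 7, a nuclear import receptor, and its log2 signal was 9.99, 9.67 and 9.51 on the siH19-2 arrays, against 10.37, 10.56 and 10.20 on the NC arrays. Its log2 fold change was -0.65 (SE 0.15, adjusted p = 0.067 from limma), or 63.6% of the NC signal. The groups lay apart, and the siH19-2 arrays were spread over a wider range than those of SNORA75. SNORA12 had 7.92, 7.37 and 7.50 on the siH19-2 arrays, against 8.11, 8.36 and 8.18 on the NC arrays, with a log2 fold change of -0.62 (SE 0.15, adjusted p = 0.085 from limma). Here siH19-2 replicate 1 was high among its replicates, and without it the adjusted p of SNORA12 was 0.037 from limma. With the SNORD centring the adjusted p was 0.039 for SNORA23 and 0.042 for SNORA12.

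Of the other SNORA RNAs whose groups lay apart, the largest differences downward were those of SNORA3A, SNORA64, SNORA70D and SNORA50A. SNORA3A, in the gene of the ribosomal protein RPL27A, had 10.26, 10.15 and 9.94 on the siH19-2 arrays, against 10.72, 10.59 and 10.33 on the NC arrays, a log2 fold change of -0.43 (adjusted p = 0.13 from limma). SNORA64, in the gene of the ribosomal protein RPS2, had 8.84, 8.81 and 8.52 on the siH19-2 arrays, against 9.21, 9.18 and 8.92 on the NC arrays, a log2 fold change of -0.38 (adjusted p = 0.14 from limma). Replicate 3 was the lowest of its group in both conditions for both RNAs. SNORA50A lies in the gene of CNOT1, the scaffold of the CCR4-NOT deadenylase. It had 8.81, 8.75 and 8.72 on the siH19-2 arrays, against 9.17, 9.22 and 8.94 on the NC arrays, a log2 fold change of -0.35 (adjusted p = 0.071 from limma). The 3 siH19-2 arrays lay close together, and the adjusted p was 0.035 from limma without NC replicate 3, the lowest NC array. SNORA70D had 7.36, 7.37 and 7.28 on the siH19-2 arrays, against 7.69, 7.94 and 7.46 on the NC arrays, a log2 fold change of -0.36 (adjusted p = 0.17 from limma).

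Upward, the groups lay apart for 3 of 97 SNORA RNAs (3.09%, beside 18.3% of all probe sets). These were SNORA74B, SNORA61 and SNORA31, and none passed the test. With the SNORD centring the groups lay apart upward for 10 SNORA RNAs (10.3%, beside 27.7%). SNORA74B had 7.01, 6.93 and 7.00 on the siH19-2 arrays, against 6.78, 6.83 and 6.80 on the NC arrays. Its log2 fold change was 0.17 (SE 0.039, adjusted p = 0.065 from limma), or 113% of the NC signal, with the replicates of each group within 0.1 of each other. SNORA61, in the small nucleolar RNA host gene SNHG12, had 11.45, 11.46 and 11.53 on the siH19-2 arrays, against 11.26, 11.38 and 11.27 on the NC arrays. Its log2 fold change was 0.18 (SE 0.049, adjusted p = 0.11 from limma), and SNORA61 and SNORA74B were the 2 members above NC at an unadjusted p under 0.05. SNORA31 had 5.64, 5.55 and 5.74 on the siH19-2 arrays, against 5.47, 5.47 and 4.46 on the NC arrays. Its log2 fold change of 0.51 (SE 0.28, adjusted p = 0.38 from limma) rested on the single low value of NC replicate 3, without which it was 0.17.

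**Figure D3:**
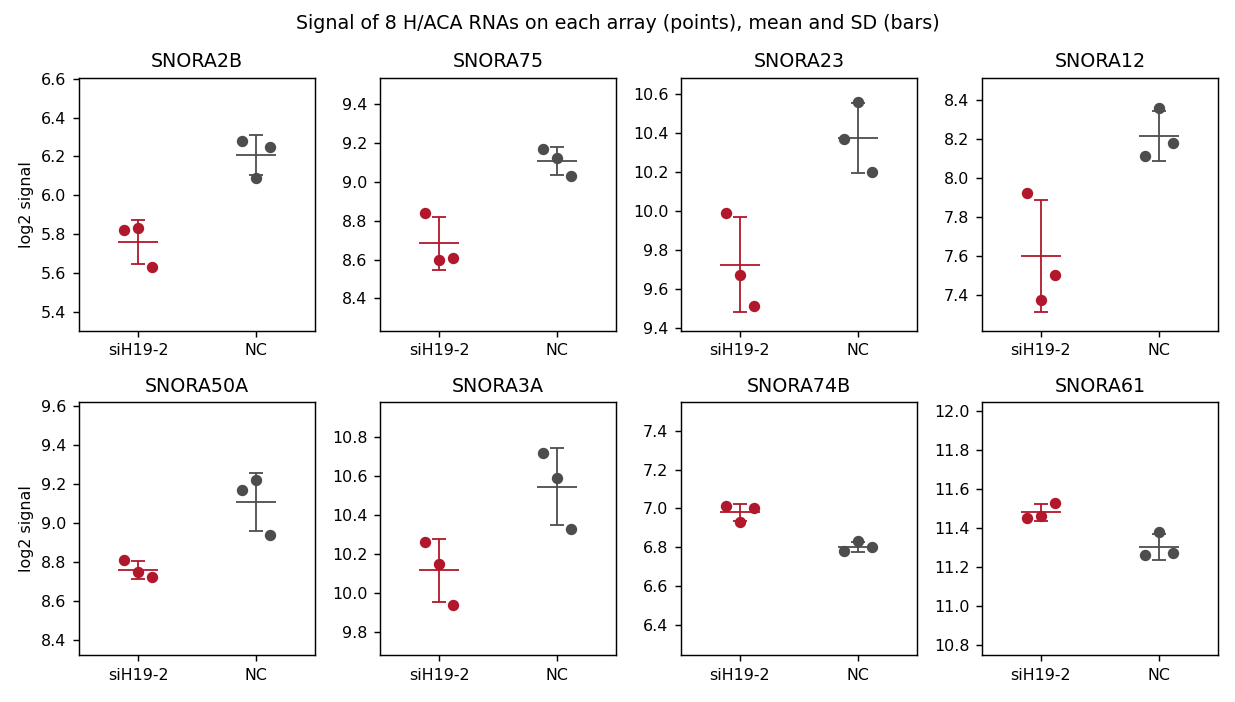
Log2 signal (y axis, each panel spanning the same range) of 8 SNORA RNAs on the 3 siH19-2 and the 3 NC arrays, with each array as a point and the mean and SD as bars. The groups do not overlap in any panel; 6 RNAs were lower and SNORA74B and SNORA61 higher on the siH19-2 arrays, and only SNORA2B and SNORA75 had an adjusted p under 0.05.

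The remaining members below NC at an unadjusted p under 0.05 were 12 SNORA RNAs, namely SNORA67, SNORA70E, SNORA77, SNORA2A, SNORA74A, SNORA27, SNORA6, SNORA25, SNORA47, SNORA50C, SNORA55 and SNORA29, and the 2 Cajal body RNAs SCARNA18B and SCARNA9L. Their log2 fold changes ran from -0.35 for SNORA67 to -0.12 for SNORA29. SNORA29 had the most even values among them, with 8.43, 8.40 and 8.45 on the siH19-2 arrays, against 8.57, 8.53 and 8.53 on the NC arrays (adjusted p = 0.13 from limma). With a prior that follows the signal intensity, 8 members (6.61%) were called from limma, beside 8.78% of all probe sets. These were SNORA2B, SNORA75, SNORA12, SNORA23, SNORA29 and SNORA50A, which were lower, and SNORA61 and SNORA74B, which were higher. When only probe sets with a signal above the median were tested, 10 of 98 members (10.2%) were called from limma, 8 lower and 2 higher, beside 20.7% of the probe sets tested. SNORA2B was too dim to enter that comparison.

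RNAs of the same number, which are copies related in sequence, did not all have similar values. Copies that resemble each other can share probe signal, and this was not tested. Of the SNORA2 copies, all within KANSL2, SNORA2A and SNORA2B had log2 fold changes of -0.32 and -0.44, and SNORA2C had 0.08. SNORA2C had 8.81, 8.86 and 8.75 on the siH19-2 arrays, against 8.56, 8.91 and 8.70 on the NC arrays, so that its groups overlapped. The SNORA74 copies, known as U19 RNAs, lay on opposite sides of NC in each scaling. SNORA74A had 8.32, 8.32 and 8.11 on the siH19-2 arrays, against 8.46, 8.72 and 8.50 on the NC arrays, a log2 fold change of -0.31 (adjusted p = 0.15 from limma), and SNORA74B had 0.17. The SNORA70 copies spanned -0.36 to 0.04, with 5 of 6 below 0 (4 of 6 with the SNORD centring). All 5 SNORA71 copies lay between -0.08 and -0.03, and between 0.02 and 0.08 with the SNORD centring. SNORA3A and SNORA3B, both within RPL27A, had -0.43 and -0.19, and SNORA50A and SNORA50C had -0.35 and -0.14, below 0 in each scaling. SNORA73A and SNORA73B, the U17 RNAs that serve in the cleavage of the ribosomal precursor rather than in its modification, had -0.14 and -0.09, of which SNORA73B had 0.02 with the SNORD centring.

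None of the 24 SCARNA RNAs passed the test. At an unadjusted p under 0.05, 2 of them (8.33%) were lower, close to the 8.25% of all probe sets, and none was higher, beside 12.0%. The groups lay apart for 5 lower (20.8%, beside 9.98%) and 2 higher RNAs (8.33%, beside 18.3%). By type, the 13 SCARNA RNAs with H/ACA domains only had a median log2 fold change of -0.076, the 5 with C/D domains -0.14 and the 4 with both kinds -0.16, while SCARNA27 and SCARNA28 were not typed. SCARNA18B had 5.24, 5.37 and 5.22 on the siH19-2 arrays, against 5.39, 5.65 and 5.66 on the NC arrays, a log2 fold change of -0.29 (SE 0.087, adjusted p = 0.14 from limma). Its copy SCARNA18 had 5.97, 5.58 and 5.05 on the siH19-2 arrays, against 6.24, 6.06 and 5.62 on the NC arrays. Replicate 3 of either condition was low for SCARNA18, and with a log2 fold change of -0.44 (SE 0.27) its 95% confidence interval ran from -1.10 to 0.21.

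SCARNA5 and SCARNA6, which carry both kinds of domain and lie within ATG16L1, a gene of autophagy, had log2 fold changes of -0.30 and -0.19, and the groups lay apart for both. SCARNA5 had 7.22, 6.91 and 7.08 on the siH19-2 arrays, against 7.24, 7.64 and 7.24 on the NC arrays (adjusted p = 0.28 from limma), so that siH19-2 replicate 1 almost reached the NC arrays. SCARNA12 had -0.12, also without overlap. SCARNA9L, a C/D copy of SCARNA9, had 9.05, 9.05 and 8.94 on the siH19-2 arrays, against 9.23, 9.15 and 9.08 on the NC arrays, a log2 fold change of -0.14 (adjusted p = 0.23 from limma), and SCARNA9 had -0.17. SCARNA7, a C/D RNA, and SCARNA11, an H/ACA RNA, were the SCARNA RNAs whose siH19-2 arrays all lay above the NC arrays, with log2 fold changes of 0.11 and 0.15. The highest value, 0.58 for SCARNA15 (SE 0.25, adjusted p = 0.27 from limma), came from 4.32, 4.96 and 5.04 on the siH19-2 arrays, against 4.39, 4.40 and 3.78 on the NC arrays. These groups overlapped, and without NC replicate 3 the value was 0.38. The others, SCARNA1, SCARNA2, SCARNA4, SCARNA8, SCARNA10, SCARNA14, SCARNA16, SCARNA17, SCARNA20, SCARNA21, SCARNA22, SCARNA23, SCARNA27 and SCARNA28, lay between -0.40 and 0.19 with overlapping groups.

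Since most members are released from introns, each was set beside the gene that contains it in the RefSeq annotation. Of 121 members, 119 lay inside another gene, and for 117 that gene was measured, with 91 such genes in all. The annotation table gives no strand, so a containing gene on the opposite strand cannot be told apart from a host. Of these 91 genes, 5 fell and 3 rose from limma, which is 8.79% beside the 5.26% of all probe sets and the 9.84% of those brighter than the median. Across the 117 pairs, the log2 fold changes of the small RNA and of the containing gene had a Pearson correlation of 0.17 and a Spearman correlation of 0.17, as a description, since pairs share arrays and containing genes. The small RNA was lower than its containing gene in 73 pairs, with a median difference of -0.078. The 95% confidence interval of the difference lay below 0 in 12 pairs, above 0 in 4, and held 0 in 101. Such a difference is taken within an array and is not altered by a shift of the whole array. A shift of the small RNAs alone on an array would remain in it.

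The members with the lowest values lay in genes that did not pass the test. SNORA23 differed from IPO7 (log2 fold change 0.06) by -0.71 (95% confidence interval -1.1 to -0.32), and SNORA12 differed from CWF19L1 (-0.02) by -0.60 (-0.92 to -0.28). SNORA2B differed from KANSL2 (0.01), a subunit of a histone acetyltransferase complex, by -0.46 (-0.67 to -0.25). SNORA75 differed from NCL (-0.04) by -0.38 (-0.64 to -0.12), with NCL at 12.60, 12.55 and 12.73 on the siH19-2 arrays, against 12.67, 12.65 and 12.67 on the NC arrays. These 4 pairs were among the 12 whose interval lay below 0. SCARNA18 and SCARNA23, also among the members with the lowest values, differed from TMEM167A and POLA1 by -0.41 (-1.03 to 0.21) and -0.45 (-0.93 to 0.03), with intervals that held 0. SNORA50A differed from CNOT1 by -0.40 (-0.65 to -0.15) and SNORA64 from RPS2 by -0.48 (-0.79 to -0.18). For SNORA3A and RPL27A, which had a log2 fold change of -0.24 itself (adjusted p = 0.061 from limma), the difference of -0.19 had an interval that held 0 (-0.50 to 0.12). SNORA74B and SNORA61 differed from ATP6V0E1 and SNHG12 by 0.07 (-0.12 to 0.27) and 0.03 (-0.15 to 0.22).

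The 8 containing genes that passed the test held small RNAs with both like and unlike values. UCHL5, which encodes a deubiquitinase of the proteasome and contains SCARNA18B, had 7.96, 7.96 and 8.04 on the siH19-2 arrays, against 8.86, 8.85 and 8.89 on the NC arrays. It fell by 0.88 (SE 0.039, adjusted p = 0.00079 from limma), to 54.3% of the NC signal, and it was called without any one array. SCARNA18B was lower by less, and its difference from UCHL5 was 0.59 (0.34 to 0.85). GTF2A1, a subunit of the general transcription factor TFIIA, fell by 0.31 (adjusted p = 0.022 from limma), and the difference of SNORA79 within it was 0.39 (0.12 to 0.66). RPSA, a ribosomal protein, rose by 0.22 (adjusted p = 0.048 from limma). Of the RNAs within RPSA, SNORA62 had a log2 fold change of 0.23 and a difference of 0.01 (-0.26 to 0.28), and SNORA6 had -0.25 and a difference of -0.47 (-0.70 to -0.24). PPP2R5A, a regulatory subunit of protein phosphatase 2A, rose by 0.23 (adjusted p = 0.033 from limma), whereas SNORA16B within it had -0.24. The calcium pump gene ATP2B4 fell by 0.36 (adjusted p = 0.010 from limma) and SNORA77 within it had -0.32, a difference of 0.04 (-0.22 to 0.30). EIF5 and NOP56 fell by 0.26 and 0.19 and NCAPD2 rose by 0.22, while SNORA28, SNORA51 and SCARNA10 within them had -0.12, -0.09 and 0.05. Apart from UCHL5, the calls of these genes did not hold without each array. ATP2B4 was called without any one siH19-2 array but not without any one NC array (adjusted p up to 0.061), NCAPD2, GTF2A1 and EIF5 only without siH19-2 replicate 3, and the calls of PPP2R5A, RPSA and NOP56 were lost without any one of the 6 arrays.

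**Figure D4:**
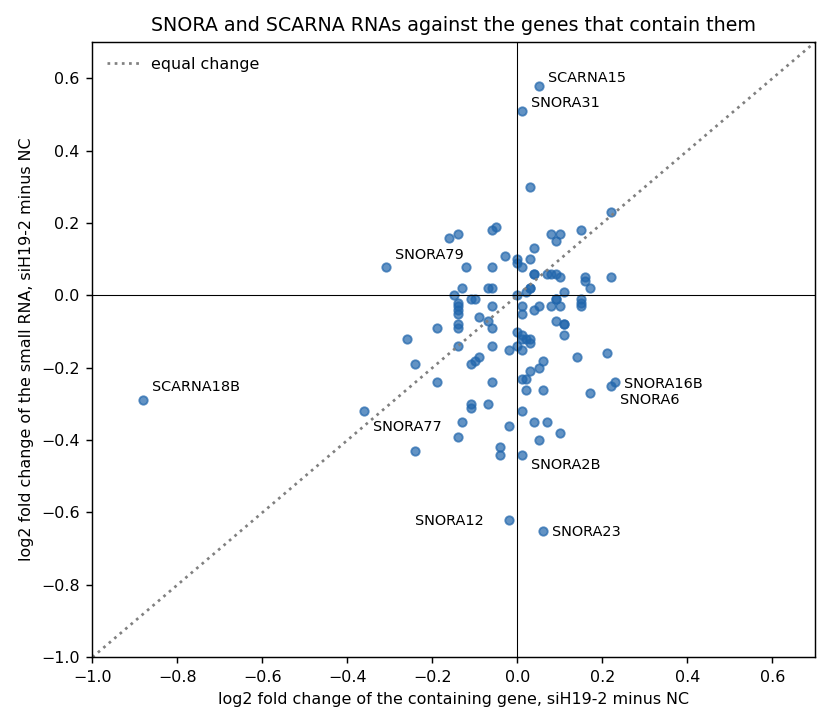
Log2 fold change (siH19-2 minus NC) of 117 SNORA and SCARNA RNAs (y axis) against that of the gene that contains each (x axis), 1 point per pair, with the dotted line at equal change. Most containing genes lie near 0; SCARNA18B lies far above the line, with UCHL5 at -0.88, and SNORA23 and SNORA12 lie lowest, beside containing genes at 0.06 and -0.02.

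RNAs of the same containing gene also differed among themselves. The 6 SNORA RNAs within TAF1D, which encodes a factor of RNA polymerase I, ran from -0.24 (SNORA25) to 0.18 (SNORA1), with TAF1D at -0.06. The 3 RNAs within TBRG4 ran from 0.02 to 0.30, and the 3 within EIF4A2 from -0.07 to 0.06. The measured containing genes were sorted into kinds by name. The 13 members counted under ribosomal protein genes had a median log2 fold change of -0.059. The 21 inside noncoding host genes of the SNHG type had -0.05, and the 83 inside other genes -0.076. This sorting was imperfect. The 13 took in SNORA7B (0.01), which lies in the pseudogene RPL32P3. SNORA52 (-0.21), in the ribosomal protein gene RPLP2, was counted among the 83. The medians were not recomputed with SNORA7B and SNORA52 exchanged. Length and log2 fold change had a Pearson correlation of -0.05 over the 121 RNAs, as a description. The RNAs were 86 to 421 nucleotides long, with a median of 134. Of these, 15 were of 200 or more, the size above which silica columns of the type used here recover RNA best. Those 15 had a median log2 fold change of -0.14, and the 106 shorter RNAs -0.043. The groups lay apart for 33.3% lower and 13.3% higher of the 15, and for 18.9% and 2.83% of the 106. At an unadjusted p under 0.05, 13.3% of the 15 and 18.9% of the 106 were lower. Whether recovery bears on these values was not tested.

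The genes of the 4 core proteins of the H/ACA particle gave no call from limma, with a median log2 fold change of 0.074 beside 0.016 for all probe sets, and 1 of them was higher at an unadjusted p under 0.05. This was DKC1, which encodes dyskerin. It had 9.86, 9.80 and 9.93 on the siH19-2 arrays, against 9.68, 9.71 and 9.70 on the NC arrays. Its log2 fold change was 0.17 (SE 0.043, adjusted p = 0.098 from limma), with each siH19-2 array above each NC array. NOP10 had 0.16 (adjusted p = 0.25), GAR1 -0.05 (0.58) and NHP2 -0.01 (0.92). Of 8 measured assembly factors, which had a median of -0.057, 1 (12.5%) was called, beside 5.26% of all probe sets and 9.84% of those brighter than the median. NAF1, which brings the core proteins together on the nascent RNA and is then replaced by GAR1, had 8.11, 8.12 and 8.02 on the siH19-2 arrays, against 8.38, 8.35 and 8.39 on the NC arrays, and it fell by 0.29 (SE 0.042, adjusted p = 0.021 from limma). The call of NAF1 held without siH19-2 replicate 3 (0.041) but not without any other array (up to 0.096). RPAP3, a subunit of the cochaperone complex that serves in the assembly, had -0.25 (adjusted p = 0.065). TERC, the telomerase RNA, whose end is an H/ACA domain, had 8.81, 8.96 and 8.94 on the siH19-2 arrays, against 8.88, 8.88 and 9.04 on the NC arrays, with overlapping groups and a log2 fold change of -0.03 (95% confidence interval -0.19 to 0.13). Of the 9 telomerase and telomere genes, with a median of 0.018, 1 (11.1%) rose, TERF2IP by 0.20 (adjusted p = 0.025 from limma), a call lost without any one array.

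Among 18 measured genes of Cajal bodies and the SMN complex, 4 rose and 1 fell at an adjusted p under 0.05 from limma, which is 27.8% beside the 5.26% of all probe sets and the 9.84% of those brighter than the median. Their median log2 fold change was 0.076. The largest difference was that of NOLC1, which encodes a phosphoprotein that shuttles small nucleolar particles between Cajal bodies and the nucleolus. NOLC1 had 10.65, 10.65 and 10.59 on the siH19-2 arrays, against 9.84, 9.83 and 9.80 on the NC arrays. It rose by 0.81 (SE 0.036, adjusted p = 0.00079 from limma), to 175% of the NC signal, and it remained called in each setting tried, including without any one array (0.006 to 0.012). COIL, which encodes coilin, the scaffold protein of Cajal bodies, had 9.33, 9.23 and 9.27 on the siH19-2 arrays, against 9.00, 8.99 and 9.07 on the NC arrays, and rose by 0.26 (adjusted p = 0.033). USPL1, a SUMO protease of Cajal bodies, rose by 0.21. ICE1, a subunit of the little elongation complex that serves in the transcription of small nuclear RNA genes, rose by 0.27. NPAT, the activator of histone genes, fell by 0.26 (adjusted p = 0.043). WRAP53, which brings RNAs with a Cajal body signal to that body, had 0.09 (adjusted p = 0.25). The other 4 calls, COIL, USPL1, ICE1 and NPAT, were lost without any one of the 6 arrays.

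**Figure D5:**
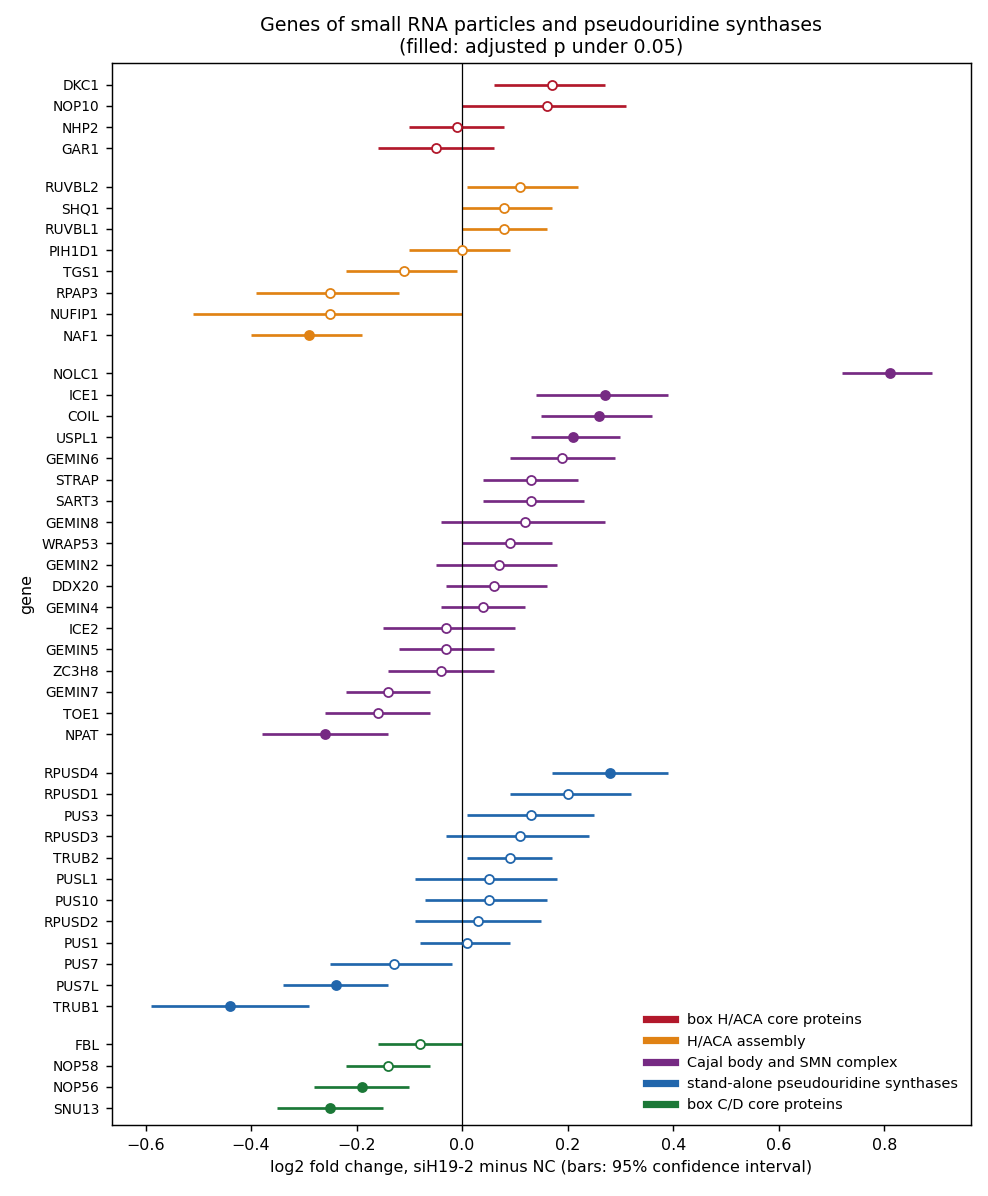
Log2 fold change (siH19-2 minus NC, x axis) of measured genes of the H/ACA particle, its assembly, Cajal bodies and the SMN complex, stand-alone pseudouridine synthases and the C/D particle (rows), with 95% confidence intervals as bars and filled points at an adjusted p under 0.05. NOLC1 at 0.81 lies apart from all other genes shown, the 4 H/ACA core genes are not filled, and the 4 C/D core genes lie below 0 (FBL at 0.03 when the arrays were centred on the SNORD median).

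Of 12 measured enzymes that make pseudouridine without a guide RNA, 2 fell and 1 rose (25.0%, beside 5.26% of all probe sets and 9.84% of those brighter than the median), with a median log2 fold change of 0.047. TRUB1, a synthase for transfer RNA, had 8.60, 8.43 and 8.59 on the siH19-2 arrays, against 8.94, 8.95 and 9.05 on the NC arrays, and fell by 0.44 (SE 0.062, adjusted p = 0.018 from limma). PUS7L fell by 0.24 and RPUSD4, a mitochondrial synthase, rose by 0.28. The 4 measured core proteins of the C/D particle had a median of -0.17. Of the 4, 2 fell (50%, beside 5.26% of all probe sets and 9.84% of those brighter than the median). Of these, SNU13 fell by 0.25 (adjusted p = 0.026) and NOP56 by 0.19 (0.045), while NOP58 had -0.14 (0.071) and FBL -0.08 (0.24). With the SNORD centring SNU13, NOP56, NOP58 and FBL had -0.14, -0.08, -0.04 and 0.03, and none was called. Of 20 genes for the trimming of small RNA ends and their decay, 1 fell and 3 rose (20.0%), with a median of -0.0086. EXOSC9, a subunit of the RNA exosome, fell by 0.29 (adjusted p = 0.020). RBM7, which directs the exosome to nuclear RNAs, rose by 0.25, and PAPD7 and PAPD5, poly(A) polymerases that tag such RNAs, rose by 0.26 and 0.20. The 17 genes of the nucleolus and ribosomal RNA synthesis had a median of 0.046, and 3 of them (17.6%) passed the test. Of these, POLR1E, a subunit of RNA polymerase I, fell by 0.39 (adjusted p = 0.0039 from limma), and TCOF1 and NOP14 rose by 0.23 and 0.18. POLR1E was called without any one array. TRUB1 was called only without siH19-2 replicate 2, and EXOSC9 and TCOF1 only without siH19-2 replicate 3. The calls of PUS7L, RPUSD4, SNU13, NOP56, RBM7, PAPD7, PAPD5 and NOP14 were lost without any one of the 6 arrays.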

How the data were processed

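The authors deposited log2 signals of 6 arrays, 1 value per probe set, after normalization between arrays. Sorted values of the arrays differed by at most 0.00184, the form that quantile normalization gives. The background correction was not given in the sources used here, nor was the annotation release. Gene names came from the authors' deposited comparison table, which also holds group means, fold changes, scores and p-values that were not used, except that its group means were checked against the arrays. Of 39334 probe sets, 73 without a name were left out.

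Log2 fold changes (siH19-2 minus NC) came from limma 3.58.1 in R 4.3.3 (functions lmFit and eBayes), two-sided, with Benjamini-Hochberg adjustment over 39261 probe sets, and called at an adjusted p under 0.05. The fit was tested on simulated data. The number of arrays limits the precision. Containing genes were taken from RefSeq (GRCh38.p14), as the shortest measured gene around each member, and all 121 members matched by gene ID. Differences between member and containing gene are given with intervals only, without an adjusted p over the pairs that was planned. No sequences of these RNAs were used, and no coordinates are given, since the array's genome build is unstated.

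Members and gene lists were chosen with earlier results of these data known. Genes were named by a rule: members that passed the test, the 8 largest falls and up to 8 largest rises of SNORA RNAs without overlap, all SCARNA RNAs, copies and containing genes of these, the 4 H/ACA core proteins, H19, TERC, and list members that passed or had the smallest p. Some genes that the rule allows are left unnamed, and SNORA29, SNORA6, SNORA79 and SNORA16B with others were added after their values were seen. Alternatives were other scalings, a brightness filter, the replicate block, leaving out each array, another prior, other adjustments and the methods' t-test.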

Additional observations from a re-analysis of the deposited data

How the results depend on the processing

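The count of members called (2) was 8 with a robust prior that follows the intensity, 10 among probe sets brighter than the median, 24 at an unadjusted p, and 0 by the methods' t-test with Benjamini-Hochberg adjustment (16 at an unadjusted p), by Bonferroni-Holm and with the replicate number as a block (29 at an unadjusted p). Over all probe sets (2067) these were 3449, 4058, 2189 by the t-test (5.58%), 43 by Bonferroni-Holm and 74 with the replicate block, and 573 with the arrays centred on the SNORD median, of which 184 were lower and 389 higher, against 1032 and 1035 as reported. Cyclic loess gave 1131 lower and 783 higher. At an unadjusted p, the prior that follows the intensity gave 28 of 121 members lower and 4 higher, beside 9.01% and 11.8% of all probe sets. Among brighter probe sets, 26 of 98 members were lower and 4 higher, beside 14.3% and 20.1% of those tested. The t-test gave 14 of 121 members lower and 2 higher, beside 7.19% and 13.4% of all probe sets. With the replicate block 26 of 121 members were lower and 3 higher, beside 8.49% and 9.83%. The SNORD centring gave 8 lower and 13 higher members, medians of 0.042 for all members, 0.054 for SNORA and -0.021 for SCARNA, and turned SNORA73B (0.02), TERC (0.08), NHP2 (0.10), GAR1 (0.06), FBL (0.03), NCL (0.07), TMEM167A (0.07) and CWF19L1 (0.09). KANSL2 was 0 with cyclic loess. H19 was at -0.19 (adjusted p = 0.28) with that centring, and at -0.30 with the replicate block (0.091) and by Bonferroni-Holm (1). The cause was not tested.

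Leaving out each array gave 0 to 2 members called, 464 to 1078 probe sets called, 13 to 26 members lower and 2 to 5 higher, medians of -0.10 to -0.039 for all members, -0.097 to -0.037 for SNORA and -0.14 to -0.084 for SCARNA, and H19 changes of -0.32 to -0.28. Changes near 0 turned, with SNORA2C, TERC, KANSL2, NCL and NHP2 reaching 0, 0.02, -0.01, 0 and 0.01 (lowest -0.06 for TERC and -0.09 for NCL), and SNORA77 minus ATP2B4 ran from -0.02 to 0.15. With the SNORD centring 27 of 99 named genes lost their call, and with the replicate block also 27. The SNORD centring raised the SE of H19 from 0.036 to 0.092. Of these 99 genes, 89 kept their direction in each setting and 41 also their side of the threshold. Deviations of same-numbered arrays correlated at 0.01, and those of other pairs at -0.02 to 0.01. These values gave no sign that replicate numbers pair the arrays, but they cannot exclude it. The dim members limit what 3 arrays can show, with a median SE of 0.17 for the 23 members at or below the median signal and 0.09 for the 98 above it.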
